A study of Sus scrofa with 189 samples.

Results

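Complex I, NADH:ubiquinone oxidoreductase, is the entry point of electrons from NADH into the mitochondrial respiratory chain. Its nuclear genes carry names that start with NDUF, and 31 such genes are named in the deposited table of pig muscle expression, out of 12651 genes in all. The values of their 44 listed transcripts were summed per gene identifier. By known role, 7 are core subunits, 4 are supernumerary subunits of the matrix arm, 12 are supernumerary subunits of the membrane arm, 7 are assembly factors and 1, NDUFA4L2, is a paralogue of a complex IV subunit. The 31 were chosen by name among the genes that the table lists. Each transcript listed there is at 0 in at most 9.52% of the libraries. An NDUF gene that the table does not list could not be included. A further 11 NDUF genes carry no name in the table and were named from a reference list by their identifiers. They are not counted among the 31.

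Complex I is shaped like an L. The matrix arm oxidizes NADH and passes electrons along iron-sulfur clusters to ubiquinone, and the membrane arm pumps protons. The core subunits do the catalysis: those of the matrix arm come from nuclear genes and those of the membrane arm, the ND proteins, from the mitochondrial genome. Supernumerary subunits surround this core and stabilise it. Assembly factors help to build the complex and are absent from the finished enzyme. In skeletal muscle the complex is known to be richest in slow, oxidative fibres.

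The animals were 189 first-generation offspring of Duroc boars and Luchuan sows, raised on the same farm and diets and slaughtered at about 210 days of age. Polyadenylated RNA came from the longissimus dorsi, the long back muscle, sampled shortly after slaughter. The one trait in the labels is the intramuscular fat content (IMF), whose unit is not stated. Of the animals, 10 had titles marked re-analyzed and high IMF (4.83 to 6.84), 11 had marked titles and low IMF (0.77 to 2.33), 143 had unmarked titles with IMF between 1.19 and 5.61, and 25 had unmarked titles and no IMF. The labels explain neither the mark nor the number code in each title. No treatment or mutation separates the groups.

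The table's header names no unit. The values were read as FPKM, fragments normalised for transcript length and for library size. The table gives no read counts, so depth is unknown and the errors below are the spread between animals. Between 7803 and 10614 genes reached 1 FPKM in a library, and the 10 highest genes took 20.0% to 44.8% of a library's FPKM. All 7 mitochondrial ND genes were listed, and 10 slow fibre and 12 fast fibre genes were found, with summed levels of 840 to 9515 FPKM and 31017 to 78123 FPKM. Library 39, an unmarked one, stood apart with 3444 FPKM in 11 adipocyte genes, against a median of 159 FPKM over all libraries.

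Among the genes named in the table, the typical structural subunit was expressed far above the typical assembly factor in every animal. The genes named only by the reference list are not in these medians. Of those, the 1 assembly factor, NDUFAF8, had a mean of 42.4 FPKM, and the lowest subunit, NDUFA5, one of 7.39 FPKM. The median structural subunit of a library stood at 38.4 ± 7.06 FPKM (SD, n = 189) and the median assembly factor at 2.73 ± 0.66 FPKM. Their ratio averaged 14.7 ± 3.75 and lay between 7.77 and 37.6, so these 2 medians did not meet in any library. Single genes did cross: in 126 of the 189 libraries the lowest subunit lay below the highest of the 7 assembly factors. The typical subunit level rests on the middle of the list: the mean over the 23 subunits was 60.7 ± 8.47 FPKM and that over the 7 assembly factors 4.40 ± 0.82 FPKM. All 31 genes passed the minimum of 0.5 FPKM on average that was set for testing. The median gene of the 10717 that passed it had a mean of 4.16 FPKM.

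**Figure D1:**
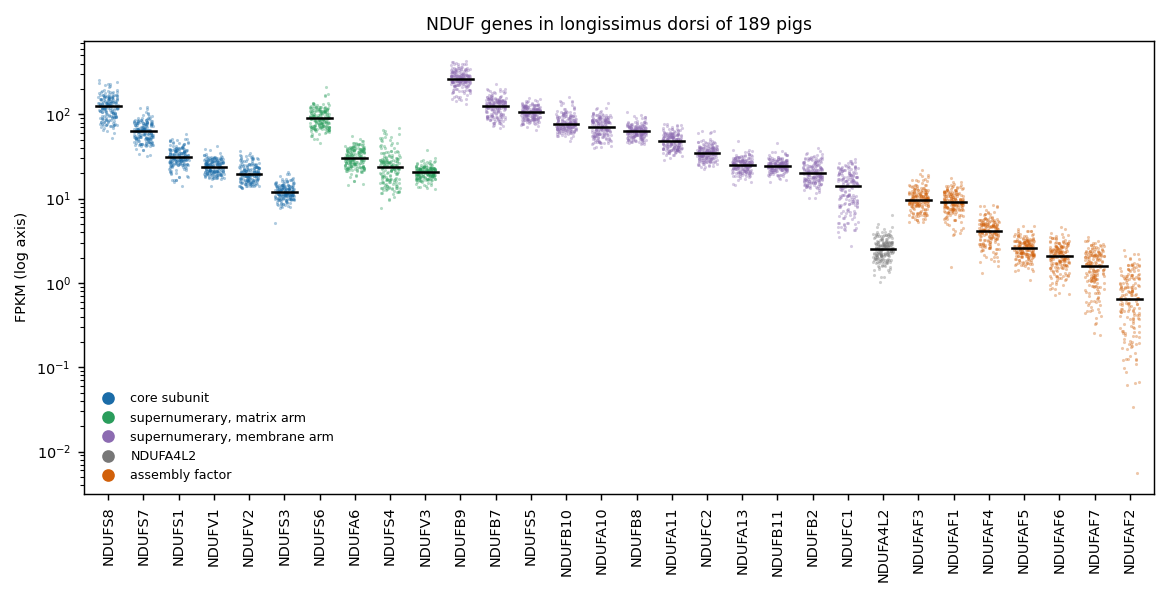
FPKM (log axis) of 30 NDUF genes in 189 pig muscles, 1 point per library, with a black line at the median. Genes are grouped by role and ordered by mean within each role; the 11 libraries with NDUFAF2 at 0 cannot be drawn on this axis. The 22 structural subunits drawn, on the left, have means of 12.2 FPKM or more, and the 7 assembly factors, on the right, have means of 10.2 FPKM or less. The NDUF genes named only by the reference list are not drawn.

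The core subunits spanned a 10.5-fold range of mean FPKM. NDUFS8, which carries a pair of iron-sulfur clusters near the ubiquinone site, was the highest at 127 ± 39.4 FPKM (range 53.0 to 256, n = 189 for this and all levels that follow). NDUFS7, which holds the last iron-sulfur cluster before ubiquinone, had 64.6 ± 16.7 FPKM. NDUFS1, the large iron-sulfur subunit, followed with 31.8 ± 7.94 FPKM. NDUFV1, which binds FMN and NADH, had 24.4 ± 4.67 FPKM, and its neighbour NDUFV2 had 20.7 ± 4.98 FPKM. NDUFS3, a subunit of the ubiquinone-binding module, was the lowest core subunit at 12.2 ± 2.46 FPKM. NDUFV1 and NDUFV2 overlapped in their ranges and differed by less than 1 SD of either.

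Among the 16 supernumerary subunits, NDUFB9 stood above all other NDUF genes at 268 ± 60.6 FPKM (range 134 to 425). NDUFB9 belongs to the LYR-motif proteins that bind the mitochondrial acyl carrier protein. NDUFB7 had 127 ± 30.1 FPKM, NDUFS5 106 ± 17.6 FPKM and NDUFB10 81.4 ± 19.4 FPKM. These 3 are twin-cysteine proteins on the intermembrane-space side of the membrane arm. NDUFS6, a zinc-binding subunit of the matrix arm, had 92.4 ± 24.5 FPKM.

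The low end of the supernumerary subunits lay close together. NDUFC1, a small subunit of the membrane arm, was the lowest at 14.2 ± 6.51 FPKM. NDUFV3 had 20.7 ± 3.43 FPKM and NDUFB2 20.9 ± 5.65 FPKM. The X-linked gene NDUFB11 had 25.0 ± 3.99 FPKM and NDUFA13, also known as GRIM-19, had 25.4 ± 4.79 FPKM. The other 6 supernumerary subunits (NDUFA10, NDUFB8, NDUFA11, NDUFC2, NDUFA6 and NDUFS4) had means of 25.4 to 72.6 FPKM.

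Part of this order followed transcript length. Across the 23 structural subunits, mean FPKM and the annotated transcript length had a Spearman correlation of -0.81, and across all 31 genes of -0.50. These are correlations over genes, which share the annotation and the libraries. FPKM is itself divided by length, so a negative correlation can arise by construction. The highest subunit exceeded the lowest 22.1-fold in FPKM, but 6.10-fold in FPKM times length in kilobases, which is a share of fragments rather than of molecules. NDUFB9 is annotated with 686 bases and NDUFB7 with 553 bases, whereas NDUFS3 is annotated with 5829 bases and NDUFB11 with 5466 bases. On the fragment scale NDUFB10, at 234, took the first place from NDUFB9, at 184. Whether the annotated ends match the transcripts of these muscles was not tested.

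Of the assembly factors, NDUFAF3 and NDUFAF1 were the highest, at 10.2 ± 2.99 FPKM and 9.27 ± 2.64 FPKM. NDUFAF3 acts with NDUFAF4 in building the ubiquinone-binding module, and NDUFAF1 is part of the assembly complex of the membrane arm. NDUFAF4 had 4.24 ± 1.36 FPKM, well below its partner NDUFAF3. NDUFAF5, which in human cells hydroxylates NDUFS7, had 2.62 ± 0.68 FPKM, and NDUFAF6, needed early in assembly, had 2.13 ± 0.73 FPKM. NDUFAF7, a mitochondrial methyltransferase, had 1.59 ± 0.73 FPKM. NDUFAF2, a paralogue of a late-joining subunit, was the lowest at 0.727 ± 0.54 FPKM and was listed at 0 in 11 libraries. NDUFA4L2, known in other tissues as a hypoxia-responsive gene, had 2.60 ± 0.79 FPKM, near the assembly factors rather than the subunits.

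Most structural subunits varied little between animals. The SD of log2(FPKM + 1), a scale on which 1 unit is a doubling at high levels, was 0.374 for the median tested gene, and 20 of the 23 structural subunits lay below that. NDUFB11 was the steadiest at 0.21, and NDUFV3 had 0.23. The 3 subunits above the median gene were NDUFC1 at 0.69, NDUFS4 at 0.59 and NDUFS8 at 0.45. NDUFC1 ranged from 2.72 to 29.3 FPKM, a 10.8-fold difference between animals, and NDUFS4, a matrix-arm subunit, ranged 8.69-fold, from 7.85 to 68.3 FPKM. Among the assembly factors, 4 of 7 exceeded the SD of the median gene. The scale of log2(FPKM + 1) understates the variation of these low genes.

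The structural subunits did not all vary together. Over the 189 animals, their 253 pairs had a median Pearson correlation of 0.34, and 48 pairs were negative. Within roles the median was 0.46 for the core (2 of 21 pairs negative), 0.56 for the matrix arm (0 of 6) and 0.41 for the membrane arm (10 of 66). Between roles it was 0.12 for core with matrix arm (12 of 28), 0.31 for core with membrane arm (20 of 84) and 0.40 for matrix with membrane arm (4 of 48). The highest pairs were NDUFB7 with NDUFA11 (r = 0.89), NDUFB7 with NDUFS8 (r = 0.86) and NDUFV1 with NDUFA10 (r = 0.86). NDUFB8 followed the average of the other subunits most closely (r = 0.85), and NDUFC2 (r = 0.78) and NDUFS7 (r = 0.77) came next. NDUFC1 had the lowest value among the structural subunits (r = 0.08). NDUFAF1 (r = -0.18) and NDUFAF7 (r = -0.11) had the lowest values of all 31 and were the negative ones. All correlations here are descriptions, since the genes of a library share its normalization.

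The median pair of an assembly factor and a subunit had a lower r than the median pair of assembly factors. The 161 pairs of an assembly factor with a structural subunit had a median r of 0.06, and 71 of them were negative, whereas the 21 pairs among assembly factors had a median r of 0.39. The most negative pair joined NDUFAF7 and NDUFS8 (r = -0.75). NDUFS8 was also opposed to NDUFC1 (r = -0.64) and NDUFAF1 (r = -0.61). Within the core, NDUFS1 and NDUFS8 were opposed (r = -0.40). NDUFS1 went with the assembly factor NDUFAF1 (r = 0.74), the highest value of a core subunit with an assembly factor, and NDUFC1 went with NDUFAF7 (r = 0.81). NDUFAF3 was the assembly factor nearest to the subunits (r = 0.41 with their average).

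**Figure D2:**
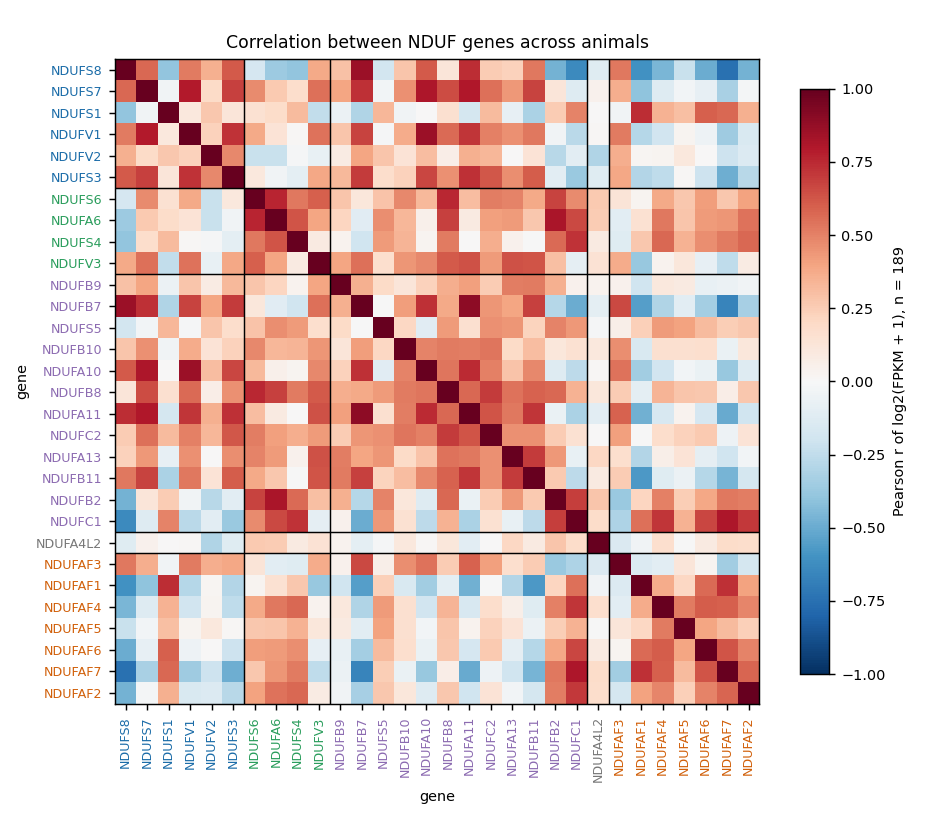
Pearson correlation of log2(FPKM + 1) between each pair of 30 NDUF genes over 189 animals, from blue (-1) to red (1), with black lines between roles. The 6 assembly factors other than NDUFAF3 are red against each other and against NDUFC1, and blue against NDUFS8 and NDUFB7, down to r = -0.75 for NDUFAF7 with NDUFS8.

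Slow oxidative fibres are rich in mitochondria, and each gene was therefore set against the mean log2(FPKM + 1) of 10 slow fibre genes, such as MYH7, the slow myosin heavy chain. The slope of the gene on that mean was tested over 189 animals with limma, with the mark as a covariate and Benjamini-Hochberg adjustment over the 10707 genes left after removing the slow fibre genes. Of the 31 NDUF genes, 12 rose with the slow fibre genes and 0 fell, at an adjusted p under 0.05. Over all tested genes, 3.26% rose and 3.5% fell. In bulk muscle, more slow fibres and more RNA of a gene per fibre cannot be told apart. The median slope was 0.08 over the 31 genes and -0.02 over all tested genes, in log2 units of the gene per log2 unit of the slow fibre mean. Over the 31 genes it was 0.18 after centring on the median gene and 0.04 on MYH7 alone. Over all genes it was 0.03 after that centring, 0.01 after quantile normalization and 0.01 after rescaling to nuclear genes.

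All 7 core subunits rose with the slow fibre genes. NDUFS7 had a slope of 0.24 ± 0.05 (SE; limma adjusted p = 9.3e-05, n = 189). NDUFS3 followed at 0.22 ± 0.03 (limma adjusted p = 5.9e-07). NDUFS8 had 0.23 ± 0.06 (limma adjusted p = 0.0070). NDUFS8 lost its call after FPKM were rescaled to nuclear genes (slope 0.15, limma adjusted p = 0.10) and when MYH7 alone stood for the slow fibre list (0.06, limma adjusted p = 0.57). On MYH7 alone, 5 of the 7 core subunits and 6 of the 31 genes rose. NDUFS7 and NDUFS3 kept their calls in every alternative, with slopes of 0.14 to 0.39 and 0.13 to 0.35.

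Of the 12 supernumerary subunits in the membrane arm, 5 rose with the slow fibre genes, 10 after centring on the median gene and 1 on MYH7 alone. NDUFA10, a subunit with a nucleoside-kinase fold, had the largest slope of the 31 genes, at 0.24 ± 0.05 (limma adjusted p = 4.4e-05). NDUFB7 had 0.22 ± 0.05 (limma adjusted p = 0.00030), but 0.08 on MYH7 alone (limma adjusted p = 0.28). NDUFB9, NDUFA11 and NDUFC2 were the other 3, at 0.20, 0.20 and 0.14. Of the 4 in the matrix arm, 0 passed the test in limma and 1, NDUFV3, had an unadjusted p under 0.05, as did 22.9% of all tested genes. Whether the arms differ was not tested. Centring each library on its median gene raised the count to 19 genes higher and 1 lower, with 1 of the 4 matrix-arm subunits and 1 of the 7 assembly factors among those higher, and it called 4915 genes of the whole table, against 724 as deposited.

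The assembly factors did not pass the test with the slow fibre genes. In limma 0 of 7 were called, against 3.26% of all tested genes higher and 3.5% lower. At an unadjusted p under 0.05 there were 0 of 7, against 22.9% of all tested genes. With a minimum mean of 5 FPKM, which 2 of the 7 reach, 283 of 4794 tested genes rose. At the minimum of 0.5 FPKM, 349 of 10707 rose. The part of level in the contrast with the core subunits was not tested. The slopes of the assembly factors ran from -0.07 for NDUFAF4 to 0.09 for NDUFAF3. The other complexes of the respiratory chain gave counts of their own in the same fit. Complex II had 4 of 4 measured genes higher, complex III 7 of 7, complex IV 4 of 11 and complex V 8 of 10, with none lower. Of the other complex I assembly genes, such as ECSIT, ACAD9 and TMEM126B, 2 of 11 were higher. Of 11 regulators of mitochondrial biogenesis, 0 were higher and 1 was lower. The 7 mitochondrial ND genes had slopes of -0.15 to -0.02 and none passed the test, with 0 of 7 at an unadjusted p under 0.05. Of 12 fast fibre genes 0 were called in limma, with 2 at an unadjusted p under 0.05.

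Complex I needs products of both genomes, so each gene was also set against the mean log2(FPKM + 1) of the 7 mitochondrial ND genes, which ranged from 7.70 to 10.8 between libraries. In the same model, 14 of the 31 NDUF genes rose with the ND genes and 13 fell. Of all 10710 tested genes, 49.1% rose and 24.0% fell, so most genes of the table moved along this axis. The ND mean went with the number of genes at 1 FPKM or more (Pearson r = 0.72, Spearman rho = 0.72, permutation p = 1e-05, n = 189), and against the share of FPKM in the 10 highest genes (r = -0.75, rho = -0.76, permutation p = 1e-05). The value 1e-05 is the smallest that 100000 permutations can give, and the adjusted p over the 3 relations computed was 1.5e-05 for each. Without the 2 libraries farthest from the median these r were 0.71 and -0.76. The part of this breadth of expression in the slopes was not tested. The ND mean and the slow fibre mean had r = -0.08 and rho = -0.08 (permutation p = 0.29 and 0.28).

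The split by role was wide, but role went with level. A minimum mean of 5 FPKM was reached by all 23 structural subunits and by 2 of the 7 assembly factors. Of the 4797 genes tested at that minimum, 2028 rose with the ND genes and 1547 fell. The part of level in this split was not tested. Of the 7 core subunits, 6 fell with the ND genes and 1, NDUFS1, rose (0.25 ± 0.03). After rescaling to nuclear genes, 2 core subunits fell and 1 rose, and 6 of the 12 membrane-arm subunits rose, against 3 as deposited. NDUFV2 changed sign when only the highest transcript of each gene was used, without passing the test. NDUFS8 had the most negative slope of the 31 genes at -0.46 ± 0.04 (SE; limma adjusted p = 8.4e-27, n = 189), and its slope stayed negative in every alternative, from -0.62 to -0.36. Of the 7 assembly factors, 6 rose and NDUFAF3 fell (-0.23 ± 0.04). NDUFAF7 had the largest slope among them at 0.52 ± 0.03 (limma adjusted p = 3.1e-49). NDUFAF2 followed at 0.39 ± 0.04 and NDUFAF4 at 0.38 ± 0.03. NDUFAF5 rose by 0.11 and was called lower after quantile normalization. With a pseudocount of 0.1 in place of 1, the slopes of the low genes NDUFAF7 and NDUFAF2 were 0.88 and 1.07, and NDUFAF4 lay between 0.20 and 0.47 over the alternatives.

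Among the supernumerary subunits, NDUFC1 had the largest slope on the ND genes, 0.86 ± 0.04 (limma adjusted p = 2.5e-59), the nearest of the 31 to a change in proportion. NDUFS4 rose by 0.49 ± 0.04 (limma adjusted p = 1.1e-21). NDUFB7 fell by 0.31 ± 0.03 (limma adjusted p = 6.1e-19), with NDUFA11 at -0.21 ± 0.03 and NDUFA10 at -0.18 ± 0.04. The most abundant gene, NDUFB9, had a slope of 0.01 ± 0.04 and did not pass the test. The balance of directions depends on the scaling. Quantile normalization gave 11 higher and 18 lower, centring on the median gene 10 and 15, rescaling to nuclear genes 17 and 7, and a minimum mean of 5 FPKM, which left 25 of the 31 genes, 8 and 13. The median slope of all tested genes was 0.07 as deposited, -0.06 after quantile normalization, -0.08 after centring on the median gene and 0.13 after rescaling. NDUFA4L2, NDUFAF5 and NDUFS5 changed sign after centring on the median gene, the first 2 of them also after quantile normalization, and NDUFA13 and NDUFV3 after rescaling. The 5 genes with the most positive and the 5 with the most negative slopes kept their sign and their call under every alternative in which they were tested. Of the macrophage and lymphocyte markers, 6 of 6 tested fell with the ND genes, as did 8 of 13 collagen and fibroblast genes; their part in these slopes was not tested.

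**Figure D3:**
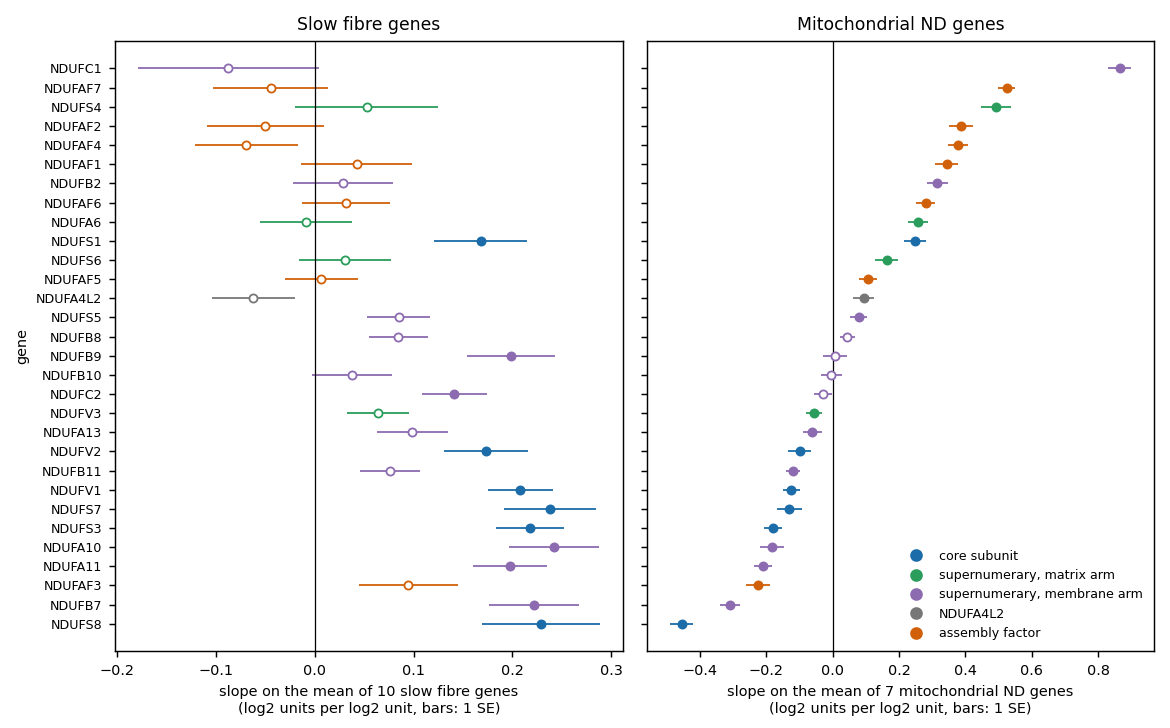
Slope of each of 30 NDUF genes on the mean of 10 slow fibre genes (left) and of 7 mitochondrial ND genes (right), in log2 units per log2 unit, with bars of 1 SE, over 189 animals. Filled points passed limma at an adjusted p under 0.05 and open points did not; colours give the role. The 6 core subunits drawn (blue) lie right of 0 on the left, and 5 of them lie left of 0 on the right.

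The re-analyzed libraries stood apart from the unmarked ones in the NDUF genes. With IMF as a linear covariate, 17 of the 31 genes were higher in re-analyzed libraries and 0 were lower (limma, 21 against 143 libraries). No re-analyzed library had an IMF between 2.33 and 4.83, and the unmarked median was 3.29. The contrast therefore rests on that linear term. Over all 10717 tested genes, 18.3% were higher and 22.7% lower. The median difference was 0.21 log2 units over the 31 genes and -0.01 over all tested genes. By role, 3 of 7 core subunits, 3 of 4 matrix-arm and 7 of 12 membrane-arm supernumerary subunits and 4 of 7 assembly factors were higher. After quantile normalization 4 of the 12 membrane-arm subunits were higher. The median structural subunit stood at 48.1 ± 8.13 FPKM in the re-analyzed libraries (n = 21) and at 37.2 ± 5.91 FPKM in all unmarked ones (n = 168). The ratio of subunits to assembly factors was 14.8 ± 2.72 in re-analyzed and 14.7 ± 3.87 in unmarked libraries.

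NDUFS4 differed most. It had a lowest value of 26.8, a median of 36.4 and a highest of 68.3 FPKM in the 21 re-analyzed libraries, against 7.85, 23.0 and 65.0 FPKM in the 143 unmarked libraries with IMF. The difference was 0.80 ± 0.13 log2 units (SE; limma adjusted p = 1.9e-07). The groups overlapped, but the lowest re-analyzed library lay above the unmarked median. NDUFC1 had 12.1, 20.3 and 26.6 FPKM in re-analyzed libraries, against 2.72, 13.8 and 29.3 FPKM in unmarked ones (0.60 ± 0.15, limma adjusted p = 0.00098). Here the unmarked range enclosed the re-analyzed one.

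NDUFS6 had 91.3, 119 and 170 FPKM (lowest, median and highest) in re-analyzed libraries, against 45.6, 86.5 and 176 FPKM in unmarked ones (0.42 ± 0.08, limma adjusted p = 6.2e-06). NDUFC2 had 32.5, 45.3 and 62.7 FPKM in re-analyzed libraries, against 22.8, 34.0 and 60.1 FPKM in unmarked ones (0.39 ± 0.06, limma adjusted p = 3.8e-08). For both genes the ranges overlapped and the re-analyzed median lay above the unmarked one. The assembly factor NDUFAF6 had 2.11, 2.79 and 4.60 FPKM in re-analyzed libraries, against 0.717, 1.99 and 4.42 FPKM in unmarked ones (0.36 ± 0.07, limma adjusted p = 2.6e-05). NDUFS8 was not called, with 115 ± 17.1 FPKM in re-analyzed and 128 ± 40.1 FPKM in unmarked libraries (-0.10 ± 0.10, limma adjusted p = 0.47).

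**Figure D4:**
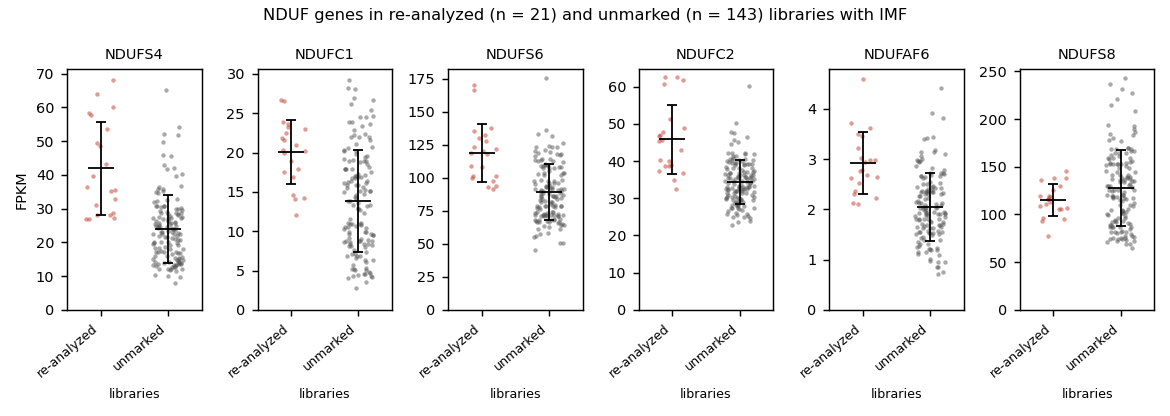
FPKM of the 5 NDUF genes with the largest called differences and of NDUFS8 in the 21 re-analyzed libraries (left in each panel, red) and the 143 unmarked libraries with IMF (right, grey), 1 point per library, with mean and SD bars. The re-analyzed means are higher for the first 5 genes, by 0.36 to 0.80 log2 units after adjustment for IMF, and for NDUFS8 the difference of -0.10 was not called.

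Other cell types differed between the same libraries. The 13 collagen and fibroblast genes summed to 913 ± 312 FPKM in re-analyzed libraries (range 396 to 1740) and to 1399 ± 512 FPKM in unmarked ones (range 390 to 3837), and 12 of the 13 were called lower. Of the macrophage and lymphocyte markers, 6 of 6 tested were lower, with 10 listed markers summing to 22.4 ± 7.79 FPKM in re-analyzed and 37.4 ± 18.3 FPKM in unmarked libraries. Of the adipocyte genes, 8 of 11 were lower, at 130 ± 67.7 FPKM against 191 ± 284 FPKM in unmarked libraries (168 ± 74.8 FPKM without library 39). Of the endothelial genes, 4 of 8 were lower (72.6 ± 14.3 FPKM in re-analyzed, 93.2 ± 20.0 FPKM in unmarked libraries), and of the pericyte genes 4 of 6 were lower (43.5 ± 10.7 and 53.9 ± 15.1 FPKM). Of the slow fibre genes 0 of 10 were higher and 1 was lower. The part of these shifts in the NDUF differences was not tested, and the mark cannot be told apart from any batch it stands for. In the same contrast complex II had 3 of 4 genes higher, complex III 5 of 7, complex V 5 of 10, and complex IV 1 of 11 higher and 2 lower. Among the mitochondrial ND genes 2 of 7 were higher.

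IMF itself gave no call. Over the 164 animals with IMF and with the mark as covariate, 0 of 31 NDUF genes rose or fell with IMF in limma, and 3 had an unadjusted p under 0.05. Over all tested genes, 0.084% rose, 0.0% fell and 4.92% had an unadjusted p under 0.05. The 3 genes were NDUFA6, another LYR-motif subunit, NDUFB2 and NDUFS5. Their slopes were 0.06 ± 0.02 (limma adjusted p = 0.80), 0.05 ± 0.02 (limma adjusted p = 0.96) and 0.03 ± 0.02 log2 units per IMF unit (limma adjusted p = 0.96). The 95% interval for NDUFA6 ran from 0.01 to 0.10. The slopes of the 31 genes lay between -0.03 and 0.07. Whether the slope differed between re-analyzed and unmarked libraries was tested as an interaction. There 0 of 31 genes passed in limma, against 0.0% of all genes in either direction. At an unadjusted p under 0.05 there were 0 of 31, against 1.64% of all genes. The smallest p belonged to NDUFS3 (difference 0.06 ± 0.04, limma adjusted p = 1.0).

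The ends of the IMF range gave the same count. Between the 10 high and the 11 low IMF animals of the re-analyzed set, 0 of 31 genes passed in limma, while 0.084% of all tested genes were higher and 0.0% lower. At an unadjusted p under 0.05 there were 5 of 31, against 4.43% of all genes. NDUFB2 had a lowest value of 21.0, a median of 25.7 and a highest of 29.6 FPKM in high IMF animals, against 17.9, 21.7 and 24.5 FPKM in low IMF animals (0.25 ± 0.09, limma adjusted p = 0.79). NDUFA6 had 35.2, 43.4 and 55.6 FPKM in high IMF animals, against 27.5, 36.8 and 40.5 FPKM in low IMF animals (0.27 ± 0.09, limma adjusted p = 0.81). NDUFS5 had 99.7, 129 and 155 FPKM in high IMF animals, against 93.8, 110 and 129 FPKM in low IMF animals (0.24 ± 0.09, limma adjusted p = 0.93). For each of the 3 genes the groups overlapped. Estimates were positive for 30 of the 31 genes, the exception being NDUFAF5 (-0.09 ± 0.11), and the median estimate was 0.14. Over all tested genes 73.0% of estimates were positive and the median was 0.07. After quantile normalization 21 of the 31 were positive with a median of 0.05, and after centring on the median gene 26 with a median of 0.07. The 11 adipocyte genes summed to 175 ± 60.3 FPKM at high IMF, against 89.7 ± 45.7 FPKM at low IMF.

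Animals that shared the first 9 digits of their title were compared as sets. The labels do not say what this code stands for, so the sets may be families, dates or something else. Over 146 animals in 48 codes, 3 of 31 NDUF genes differed between codes (limma moderated F test), against 1.82% of all tested genes. At an unadjusted p under 0.05 there were 12 of 31, against 18.8% of all tested genes. The share of variance between codes, as an intraclass correlation, was 0.35 for NDUFS7 (adjusted p = 0.0097), 0.30 for NDUFA10 (adjusted p = 0.030) and 0.29 for NDUFS6 (adjusted p = 0.038). These are the 3 called genes. The median over all 31 was 0.10 (range -0.13 to 0.35), and the median over all tested genes was 0.05. Code means of NDUFS7 ran from 40.9 to 105 FPKM, with a median SD of 10.2 FPKM within a code. The lowest and the highest code mean each rest on 2 animals. Quantile normalization took the call from all 3 genes, with adjusted p of 0.053 for NDUFS7, 0.10 for NDUFA10 and 0.088 for NDUFS6. In the unmarked libraries alone NDUFS7 kept its call. NDUFA10 lost it there (adjusted p = 0.081) and after centring on the median gene (0.084). NDUFS6 lost it there (0.11), without library 39 (0.059), without the mark (0.074) and after rescaling to nuclear genes (0.065). The assembly factors had 0 of 7 called and 0 of 7 at an unadjusted p under 0.05.

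Several NDUF genes are listed with more than 1 transcript, and their make-up differed between animals. Of the 31 genes 22 have 1 listed transcript and 9 have more. NDUFS4 lies on the forward strand of chr16:32874243-32988577 (Sscrofa11.1) and has a transcript of 691 bases and another of 3582 bases. The shorter transcript held 19.4 ± 20.9% of the gene's FPKM, from 0.91% to 70.0%. It held under 10% in 106 libraries and 30% or more in 59. The shorter NDUFS4 transcript had 13.9 ± 15.1 FPKM in re-analyzed libraries and 5.91 ± 7.93 FPKM in unmarked ones with IMF, and the longer one 28.0 ± 4.39 FPKM in re-analyzed and 18.1 ± 5.48 FPKM in unmarked libraries. Both transcripts of NDUFS4 thus had higher means under the mark.

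NDUFAF1, at chr1:129968516-129992246 on the forward strand, varied in its make-up too. Its transcript of 2299 bases held 30% to 40% of the gene's FPKM in 62 libraries, 40% to 50% in 20, 50% to 60% in 5, 60% to 70% in 13, 70% to 80% in 45 and 80% to 90% in 24. In 16 libraries it held 90% or more and in 4 under 30%. The share was below 50% in 7 of 21 re-analyzed and 69 of 143 unmarked libraries with IMF. NDUFS8, at chr2:4862487-4885860 on the reverse strand, has 3 listed transcripts. The one of 876 bases held under 10% in 121 libraries and 30% or more in 30. It held 30% or more in 0 of 21 re-analyzed and in 26 of 143 unmarked libraries. By contrast the shorter NDUFS7 transcript held a steady 64.7 ± 3.34%, and the main NDUFS5 transcript 99.6 ± 0.18%. StringTie estimates how reads divide between overlapping transcripts, and no counting error is available for these shares.

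**Figure D5:**
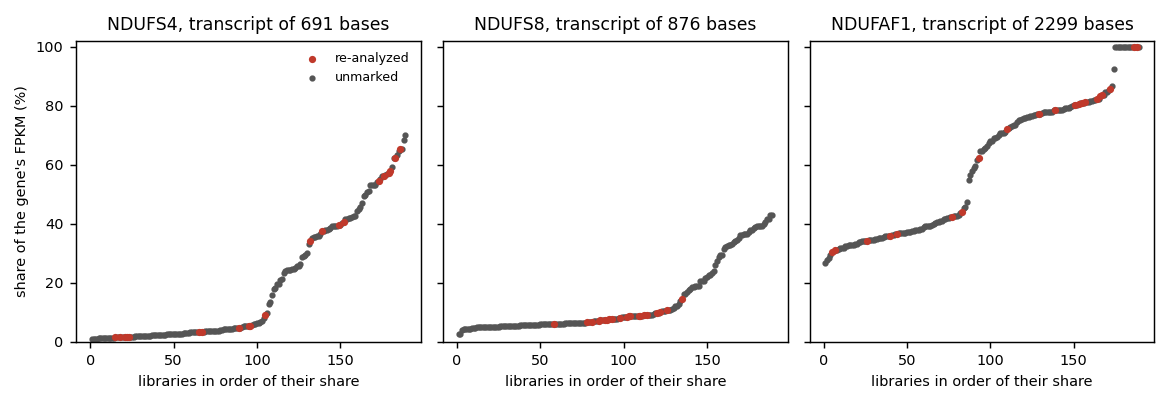
Share of a gene's FPKM in 1 transcript of NDUFS4 (691 bases), NDUFS8 (876 bases) and NDUFAF1 (2299 bases), in percent, with 189 libraries ordered by that share in each panel; re-analyzed libraries are red and unmarked ones grey. The NDUFS4 share stays under 10% in 106 libraries and then climbs to 70.0%, and the NDUFAF1 share climbs through its whole range, with 5 libraries at 50% to 60%.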

How the data were processed

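The authors deposited 1 table of values per annotated transcript and library, aligned and assembled with HISAT2 2.0.5 and StringTie 1.3.3 on Sscrofa11.1, per the submitters' processing notes. The deposited values were taken as FPKM from the column layout and the library sums (364109 to 465105), since the header names no unit. No step between the values of low genes showed whole reads. Which annotation release and transcript filter were applied is not given in the sources used here. Each listed transcript has a value of 0 in at most 9.52% of the libraries.

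FPKM were summed per gene identifier, and the 10717 genes averaging 0.5 FPKM or more were tested on log2(FPKM + 1) with limma 3.58.1 in R 4.3.3 (mean trend, 2-sided, Benjamini-Hochberg over all tested genes, called at an adjusted p under 0.05). The fit was tested on simulated data. Summaries used Python 3.11.15, pandas 2.3.3, scipy 1.17.1 and matplotlib 3.10.9. Members, gene lists and tests were chosen with earlier results of these data known. Text names core subunits and assembly factors, the extremes in level, spread and correlation, and per comparison up to 10 called genes, otherwise the 5 largest per direction, or the 3 smallest p where none was called. Nothing in the labels says that libraries of a group are independent beyond being separate animals. The values of 1 gene are not reported here; it stays in the counts and fits and is not drawn.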

Additional observations from a re-analysis of the deposited data

Results flagged for a closer look

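Among the 10 high IMF animals of the re-analyzed set, 3 of the 31 NDUF genes had a highest library far from the next one, by Dixon's test at the 95% level; chance flags about 1 group in 20. NDUFB7 reached 178 FPKM in library 136, and the next library had 146 FPKM. NDUFS7 reached 117 FPKM in the same library 136, and the next had 89.4 FPKM. NDUFA4L2 reached 6.34 FPKM in library 160, and the next had 3.08 FPKM. None of these 3 genes was called between high and low IMF.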

How the results depend on the processing

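The alternatives changed the pseudocount (0.1), the minimum mean (none or 5 FPKM), the scaling (quantile normalization, centring on the median gene, rescaling to nuclear genes), the transcripts used, library 39, the title code, its first 4 digits, the mark and the set of libraries. For the genes with the largest effects or smallest p in each comparison, 388 values under these alternatives kept direction and call and 12 lost the call. The 388 include the genes of the IMF comparisons, which were not called as deposited and had no call to lose. Other genes that changed sign on the mitochondrial ND axis are named beside that result. Counts over the 31 genes moved by over 1.5 times as follows. The title codes called 0 of the 31 genes after quantile normalization and 1 in the unmarked libraries alone. On the mitochondrial ND genes 8 rose with a minimum mean of 5 FPKM, for which fewer genes were tested, and 7 fell after rescaling to nuclear genes. On the slow fibre genes 19 rose and 1 fell after centring on the median gene, and 6 rose on MYH7 alone. By role, on the mitochondrial ND genes 8 of 12 membrane-arm subunits and 2 of 7 assembly factors fell after quantile normalization, against 5 and 1 as deposited. The typical structural subunit moved to 48.1 FPKM in the re-analyzed libraries alone and to 60.7 FPKM as a mean over genes, and the typical assembly factor to 4.40 FPKM as a mean. Where no construction explains a change, the cause was not tested. Between high and low IMF, leaving out each of the 21 libraries in turn gave 0 to 0 called genes. IMF slopes gave 0 called NDUF genes in every alternative, one of which, the unmarked libraries without library 39, was chosen after seeing the data. Over the whole table, IMF slopes called 9 genes, against 28 without library 39, 19 with a pseudocount of 0.1 and 0 in the unmarked libraries alone. The slow fibre slopes called 724, against 4915 after centring, 2778 after quantile normalization, 1335 with the highest transcript, 413 after rescaling and 412 on MYH7 alone. The title codes called 195, against 107 after quantile normalization, 110 after centring and 59 in the unmarked libraries. High against low IMF called 9, against 2 after rescaling. A minimum mean of 5 FPKM, with fewer genes tested, called 439 on the slow fibre genes, 3575 on the ND genes (7827 otherwise) and 2253 for the mark (4400 otherwise). The labels name no pairs of animals, and no paired analysis was run. Title codes are shared by some re-analyzed and unmarked animals, and with the code as a random effect 17 genes were higher and 0 lower under the mark. Depth is unknown, so values of NDUFAF2 and other low genes carry a counting error that cannot be stated.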

Other observations

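The 11 NDUF genes named only through the reference list were given no part in the counts above. NDUFA4, now known as a complex IV subunit, was the highest of them at 233 ± 48.4 FPKM (n = 189). NDUFB1 had 111 ± 58.3 FPKM, from 37.2 to 319 FPKM. NDUFAB1, the mitochondrial acyl carrier protein, had 79.2 ± 22.9 FPKM. NDUFAF8, an assembly factor, had 42.4 ± 11.0 FPKM, above each of the 7 assembly factors named in the table. NDUFA5, a matrix-arm subunit, was the lowest at 7.39 ± 4.09 FPKM, from 0.644 to 16.6 FPKM. Its SD of log2(FPKM + 1), 0.83, exceeded that of each of the 31 genes. That scale understates the variation of low genes such as NDUFAF2.

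With the mitochondrial ND genes, 8 of the 11 rose and 2 fell (limma), against 49.1% and 24.0% of all tested genes. NDUFA5 had a slope of 1.06 ± 0.04 (limma adjusted p = 1.3e-67), and NDUFB1 one of 0.58 ± 0.06. NDUFAB1 fell by 0.15 ± 0.04 and NDUFA9 by 0.13 ± 0.03. With the slow fibre genes, 4 of the 11 rose, against 3.26% of all tested genes. They were NDUFA9 (0.25 ± 0.03, limma adjusted p = 1.3e-10), NDUFA4 (0.22 ± 0.04), NDUFAB1 (0.22 ± 0.05) and NDUFB4 (0.10 ± 0.03). Under the mark 7 of the 11 were higher in re-analyzed libraries and 0 lower, against 18.3% and 22.7% of all tested genes. NDUFA5 had 11.4 ± 2.19 FPKM in re-analyzed and 7.09 ± 4.01 FPKM in unmarked libraries with IMF.

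The 31 genes lie on 15 chromosomes, with 7 on chromosome 2, more than on any other. These are the core genes NDUFS8, NDUFV1, NDUFS3 and NDUFS7 and the supernumerary genes NDUFA13, NDUFB7 and NDUFA11. All 7 had negative slopes on the mitochondrial ND genes, NDUFA13 with the opposite sign after rescaling to nuclear genes. The 4 core genes are among the 6 core subunits already counted as falling. Of these slopes, 62.0% were positive over all tested genes and 16 of 31 over the NDUF genes. With a minimum mean of 5 FPKM, which all 7 genes reach, 53.8% and 10 of 25 were positive. The share among all genes of chromosome 2 was not computed.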
